A study of Homo sapiens with 9 samples.

Results

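10 genes that are targets of Wnt signalling or mark intestinal stem cells were followed in the HT-29 line, cells of a human colon adenocarcinoma grown as monolayers, after exposure to 5-aza-deoxycytidine (5-Aza). They were MYC, AXIN2, LGR5, ASCL2, RNF43, ZNRF3, NKD1, DKK1, SOX9 and EPHB2, a list of 10 among the 19775 genes that the probe table names. All probe sets of the listed genes were taken: 9 of the 10 genes had a named probe set, with 17 probe sets in all, and 8 genes were above the filter on low signals and were tested. EPHB2 was not analysed here, because no probe set carried its name. The cultures received 0, 5 or 10 µM 5-Aza for the same time, with 0 µM being the DMSO vehicle alone, and each of the 3 groups held 3 separate cultures with 1 array each, 9 arrays in all. All groups were the same single cancer cell line with no untreated culture besides the vehicle and no normal colon cells, and the whole culture was lysed, so that fewer cells of a type and less RNA per cell cannot be told apart. Of 8 colon epithelial markers, 7 were above the floor on all 9 arrays and 1 was below it on all 9. Of 9 markers of blood, stromal and endothelial cells, 4 were above it on all 9 arrays and 3 below it on all 9.

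In the Wnt pathway, a ligand bound to Frizzled and LRP receptors stops the destruction complex of APC, AXIN and kinases from degrading beta-catenin, which then enters the nucleus and acts with TCF factors on target genes. In the intestine this signal maintains the stem cells at the crypt base and is opposed by its own targets: RNF43 and ZNRF3 remove Frizzled from the membrane, AXIN2 rebuilds the destruction complex, NKD1 binds Dishevelled, and DKK1 is secreted and blocks LRP. In most colon cancers, HT-29 included, APC is truncated and the target genes are active without a ligand. 5-Aza is built into DNA, traps the DNA methyltransferases and leads to loss of CpG methylation as cells divide.

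The 250 bases before the start of DKK1 and RNF43 are shown because these genes moved in opposite directions at 5 µM and both windows hold the core of the TCF motif. Capitals mark CTTTGA or CTTTGT on either strand (TCAAAG or ACAAAG where the match is on the other one). The sequences are those of RefSeq (GRCh38.p14), with 5′ to 3′ in the direction of transcription, and lie at chr10:52314031-52314280 on the plus strand for DKK1 and at chr17:58417535-58417784 and chr17:58402722-58402971 on the minus strand for the 2 starts of RNF43.
DKK1: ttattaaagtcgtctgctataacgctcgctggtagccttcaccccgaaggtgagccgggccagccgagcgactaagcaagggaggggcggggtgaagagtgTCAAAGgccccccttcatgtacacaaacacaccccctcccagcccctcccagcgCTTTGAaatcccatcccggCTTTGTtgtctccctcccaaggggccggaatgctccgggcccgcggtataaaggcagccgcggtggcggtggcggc
RNF43, start 1: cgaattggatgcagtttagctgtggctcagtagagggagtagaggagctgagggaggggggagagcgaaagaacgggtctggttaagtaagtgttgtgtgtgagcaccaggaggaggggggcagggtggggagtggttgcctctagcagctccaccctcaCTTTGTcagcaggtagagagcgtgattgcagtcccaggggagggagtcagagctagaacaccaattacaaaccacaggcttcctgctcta
RNF43, start 2: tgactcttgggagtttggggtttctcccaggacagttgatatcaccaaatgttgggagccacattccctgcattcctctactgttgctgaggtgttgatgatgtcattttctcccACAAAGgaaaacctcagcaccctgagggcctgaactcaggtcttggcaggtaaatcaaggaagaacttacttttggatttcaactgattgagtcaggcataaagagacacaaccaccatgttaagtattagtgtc
The DKK1 window held 18 CG dinucleotides, 2 matches to CTTTGA and 1 to CTTTGT, which do not overlap each other. Of the 35097 promoters in the table, 36.8% held as many CG dinucleotides, the median was 11, and 22.8% held CTTTGA or CTTTGT. The first RNF43 window held 4 CG dinucleotides and 1 CTTTGT, and the second held no CG and 1 CTTTGT. EPHB2, the only other member with a promoter in the table, held 0 CTTTGA and 0 CTTTGT in either of its windows, with 42 and 41 CG dinucleotides. Methylation was not measured, and a match to these letters is a description and not a site.

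Values are log2 signals. The floor is the median signal of all probe sets of an array, which lay between 5.07 and 5.52. A gene was represented by its brightest probe set, and was tested with limma when it reached the floor on all 3 arrays of a group. A gene is said to rise or fall when the Benjamini-Hochberg adjusted p over all 11758 tested genes was at most 0.05, and is called when it also changed more than 2-fold. The 3 comparisons share their groups pairwise, so that one group's values enter 2 of them. Errors of signals are SD over 3 arrays, and errors of log2 fold changes are SE from limma.

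The arrays differed in ways that moved with dose. For the actin control probe sets, the 3′ signal exceeded the 5′ signal by 2.09 ± 0.19 (log2) in vehicle, by 2.59 ± 0.10 in 5 µM and by 2.98 ± 0.17 in 10 µM cultures, a difference that is larger in less intact RNA. The array median was 5.15 ± 0.07 at 0 µM, 5.41 ± 0.01 at 5 µM and 5.42 ± 0.15 at 10 µM. The 5′ signal of 18S rRNA was 13.45 and 13.60 on 10 µM replicates 2 and 3, and 11.77 to 12.56 on the other arrays. Of all tested genes, 8.6% were called higher and 1.32% lower at 5 µM against 0 µM, or 1011 and 155 genes, and with the arrays brought to equal medians the split was 721 to 443. At 10 µM against 0 µM, 716 were called higher and 176 lower, against 459 and 475 with equal medians and 514 and 231 after quantile normalization.

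The members did not move as a block. At 5 µM against 0 µM, 2 of the 8 tested members were called, DKK1 higher and MYC lower, where 9.92% of all tested genes were called. By adjusted p alone, 2 members rose and 4 fell, where 33.5% of all tested genes passed, 20.2% rising and 13.3% falling. At 10 µM against 5 µM no member was called by limma, where 2.35% of all tested genes were, 2.08% being lower. Here 6 of 8 members had an unadjusted p under 0.05, as did 3816 of all 11758 tested genes, and Student's test also called 0 members. Of the members 3 rose and 3 fell by adjusted p, where 6.93% of all genes rose and 8.92% fell. At 10 µM against 0 µM 1 member was called, DKK1, where 7.59% of all tested genes were, 6.09% higher and 1.5% lower. By adjusted p 1 member rose and 3 fell, where 33.1% of all genes passed, 19.8% rising and 13.3% falling. The median log2 fold change of the 8 members was -0.24, 0.11 and -0.29 in these comparisons, and that of all tested genes was 0.04, -0.01 and 0.05. With low signals raised to the floor the members' medians were -0.24, 0.11 and -0.23, and 3 rose and 2 fell from 5 to 10 µM and 1 rose and 2 fell at 10 µM against 0 µM, since LGR5, below the floor at 10 µM, no longer passed.

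**Figure D1:**
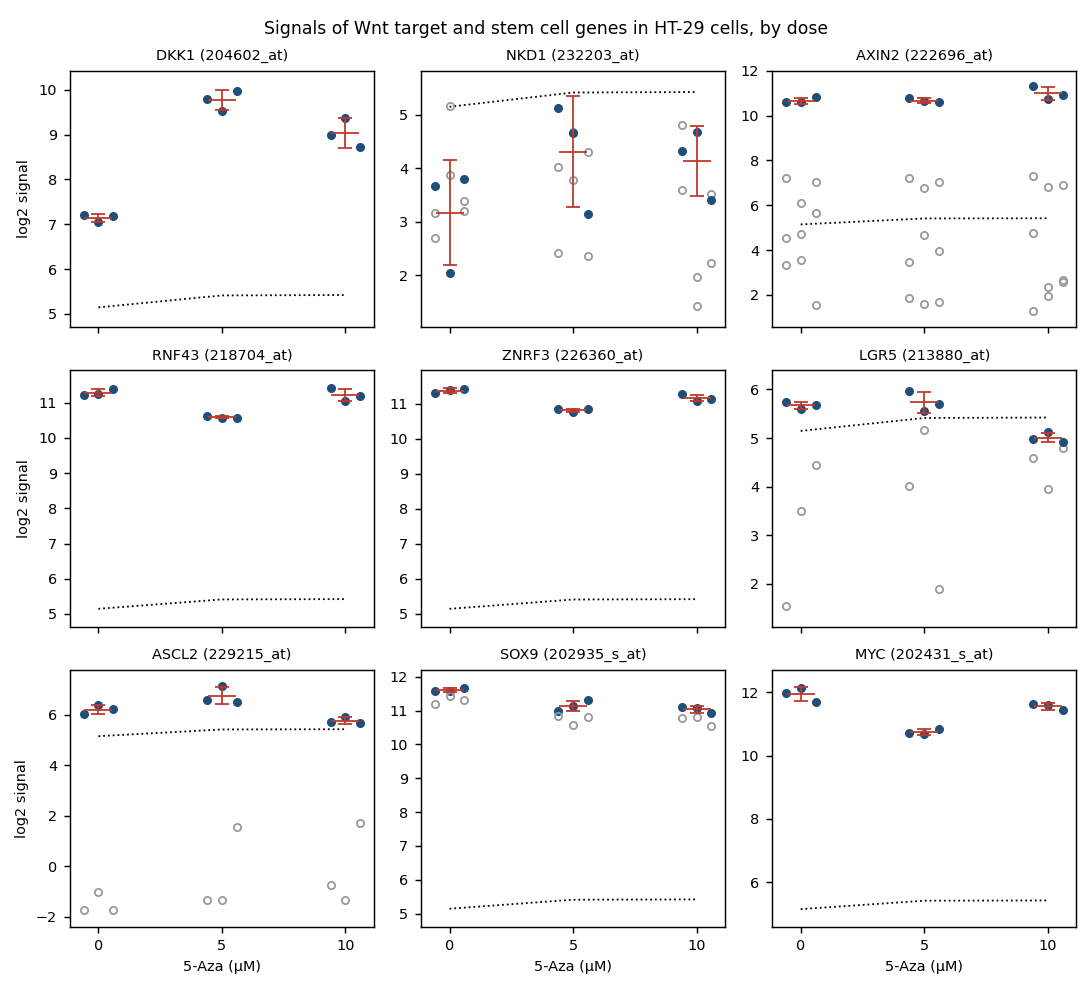
Log2 signal (y axis) of the 9 genes with a named probe set against 5-Aza dose in µM (x axis). Filled points are the 3 arrays of a dose for the brightest probe set, named in each title, with mean and SD in red; open points are other probe sets of the gene, and the dotted line joins the mean array medians of the 3 doses, the floor. DKK1 lies at 7.04 to 7.21 at 0 µM and at 8.73 or above on every treated array, MYC is lowest at 5 µM, and every NKD1 value but 1, on vehicle replicate 2, lies under the floor of its own array. Levels are not comparable between panels.

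DKK1, the secreted LRP antagonist, was the member that rose most. Its 1 probe set read 7.21, 7.04 and 7.18 on the vehicle arrays, 9.79, 9.53 and 9.97 at 5 µM, and 8.99, 9.38 and 8.73 at 10 µM. All 6 treated arrays lay above all vehicle arrays, and the 3 arrays at 10 µM lay between both other groups. The signal was 6.15-fold higher at 5 µM than in vehicle (log2 2.62 ± 0.18, 95% interval 2.22 to 3.02, adjusted p = 2.26e-05 by limma), and this call was kept under all 23 alternatives. At 10 µM it was 3.72-fold higher than in vehicle (log2 1.89 ± 0.18, adjusted p = 0.000274 by limma). Between both treated doses it fell by 0.73 on the log2 scale (SE 0.18, adjusted p = 0.0282 by limma), a fall that no longer passed under 11 of 23 alternatives.

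The membrane ubiquitin ligases RNF43 and ZNRF3, which act on the same Frizzled receptors, had 1 probe set each, and both were lowest at 5 µM. RNF43 read 11.22, 11.26 and 11.39 in vehicle, 10.62, 10.56 and 10.58 at 5 µM, and 11.41, 11.05 and 11.20 at 10 µM. The 5 µM arrays lay below all others, while the 10 µM and vehicle arrays overlapped. RNF43 fell to 61.5% of vehicle at 5 µM (log2 -0.70 ± 0.11, adjusted p = 0.00187 by limma) and rose again from 5 to 10 µM (log2 0.63 ± 0.11, adjusted p = 0.00945 by limma). At 10 µM its difference from vehicle was -0.07 ± 0.11 on the log2 scale (95% interval -0.32 to 0.19, adjusted p = 0.662 by limma), and turned to 0.05 after quantile normalization and to 0.13 without 10 µM replicates 2 and 3.

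ZNRF3 read 11.30, 11.39 and 11.43 in vehicle, 10.85, 10.77 and 10.84 at 5 µM, and 11.27, 11.09 and 11.15 at 10 µM. The groups did not overlap, with 10 µM between the other two. It fell to 68.1% of vehicle at 5 µM (log2 -0.55 ± 0.09, adjusted p = 0.00212 by limma) and was higher at 10 µM than at 5 µM by 0.35 ± 0.09 on the log2 scale (adjusted p = 0.0333 by limma), a rise that was lost under 14 of 23 alternatives. At 10 µM against vehicle its log2 difference of -0.20 ± 0.09 did not pass (95% interval -0.41 to 0.00, adjusted p = 0.116 by limma).

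AXIN2, the scaffold of the destruction complex and the most widely used readout of Wnt signalling, did not pass the test in any comparison. Under alternatives it did pass at 10 µM, in 3 of 23 against vehicle and in 1 of 23 against 5 µM. Its brightest probe set read 10.61, 10.59 and 10.83 in vehicle, 10.78, 10.65 and 10.59 at 5 µM, and 11.31, 10.76 and 10.91 at 10 µM. The groups overlapped in all 3 comparisons, with 10 µM replicate 1 above every other array. At 5 µM against 0 µM the log2 difference was 0.00 ± 0.15 (95% interval -0.34 to 0.33, adjusted p = 0.985 by limma). At 10 µM it was 0.32 ± 0.15 against vehicle (95% interval -0.02 to 0.65, adjusted p = 0.132 by limma). It was 0.63 when 10 µM replicates 2 and 3 were left out, which leaves only the array with the highest AXIN2 signal at that dose and takes the spread from the other groups alone. A second AXIN2 probe set, above the floor on all 9 arrays, read 6.11 to 7.22 in vehicle, 6.76 to 7.24 at 5 µM and 6.83 to 7.31 at 10 µM, with log2 differences of 0.22, 0.01 and 0.23 at adjusted p of 0.555 or more by limma. The other two lay above the floor on 1 and on 0 arrays. Averaging all 4 probe sets turned the AXIN2 difference at 10 µM against vehicle to -0.51 (adjusted p = 0.0534 by limma).

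NKD1, which dampens the pathway at Dishevelled, was not measurable. Of its 27 values on 3 probe sets, 1 reached the floor, at 5.16 on vehicle replicate 2, and the others lay between 1.43 and 5.12. No fold change is given for it.

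LGR5, the R-spondin receptor that marks crypt base stem cells, was close to the floor. Its brighter probe set read 5.75, 5.59 and 5.67 in vehicle, 5.97, 5.55 and 5.69 at 5 µM, and 4.99, 5.12 and 4.92 at 10 µM. All 6 arrays at 0 and 5 µM were above the floor of their array and all 3 at 10 µM were below it. For 10 µM only a bound can therefore be given, with each low signal raised to its array's floor: LGR5 was at least 1.24-fold lower than at 5 µM (adjusted p = 0.00824 by limma on the values as deposited) and at least 1.19-fold lower than in vehicle (adjusted p = 0.00505 by limma). With the raised values the difference no longer passed, at adjusted p of 0.121 and 0.164 by limma. At 5 µM against vehicle its log2 difference was 0.07 ± 0.12 (95% interval -0.21 to 0.35, adjusted p = 0.707 by limma), and -0.21 after quantile normalization. Its other probe set was below the floor on all 9 arrays.

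ASCL2, the transcription factor that sustains the crypt stem cell programme, was highest at 5 µM and lowest at 10 µM. It read 6.02, 6.37 and 6.21 in vehicle, 6.59, 7.12 and 6.51 at 5 µM, and 5.70, 5.91 and 5.68 at 10 µM. The 3 groups did not overlap. From 5 to 10 µM it fell by 0.98 on the log2 scale (SE 0.17, 95% interval -1.37 to -0.59, adjusted p = 0.0096 by limma), a 1.97-fold fall that lies just inside the 2-fold limit. That fall passed 2-fold without 5 µM replicate 1 (log2 -1.05), without 5 µM replicate 3 (-1.10), without 10 µM replicate 2 (-1.05) and with array weights (-1.11). The rise of 0.54 ± 0.17 at 5 µM against vehicle (adjusted p = 0.0404 by limma) was lost under 14 of 22 alternatives, quantile normalization among them (0.29, adjusted p = 0.327 by limma). Against vehicle the log2 difference at 10 µM was -0.44 ± 0.17 (adjusted p = 0.082 by limma). The second ASCL2 probe set was below the floor on all 9 arrays.

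**Figure D2:**
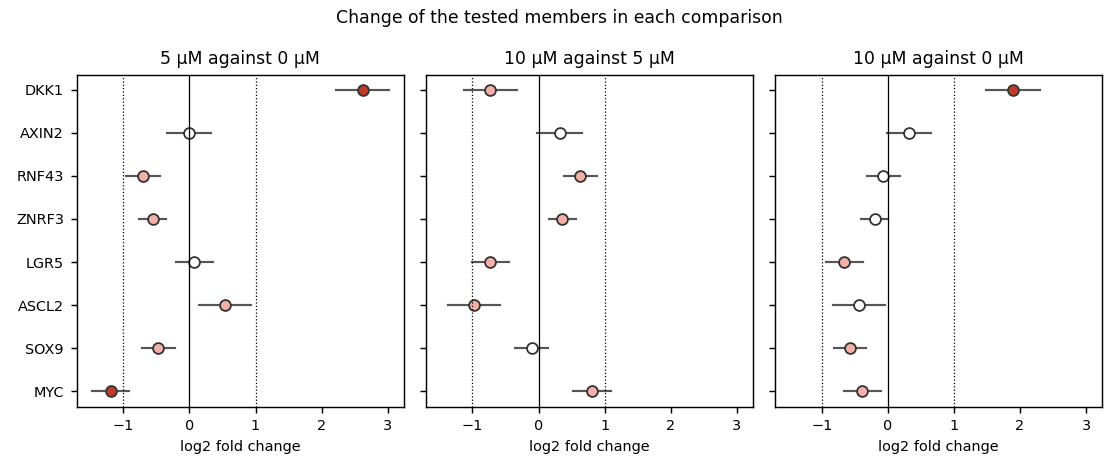
Log2 fold change (x axis) of the 8 tested members in the 3 comparisons, with the 95% interval from limma as a line. Dark points were called, pale points passed the adjusted p but not the 2-fold limit (dotted lines), and white points did not pass. DKK1 at 2.62 and MYC at -1.19 are the called genes at 5 µM against 0 µM, and RNF43, ZNRF3 and MYC lie to the right of 0 at 10 µM against 5 µM. For LGR5 at 10 µM the fitted value is drawn although its signals were below the floor there.

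SOX9, a transcription factor of crypt progenitors, was lower at both doses. Its brighter probe set read 11.57, 11.57 and 11.67 in vehicle, 10.98, 11.12 and 11.30 at 5 µM, and 11.11, 11.07 and 10.92 at 10 µM. Every treated array lay below every vehicle array, and both treated groups overlapped. It fell to 72.2% of vehicle at 5 µM (log2 -0.47 ± 0.11, adjusted p = 0.0109 by limma) and to 67.3% at 10 µM (log2 -0.57 ± 0.11, adjusted p = 0.00535 by limma). Between both treated doses the difference was -0.10 on the log2 scale, with a 95% interval of -0.35 to 0.14. The second SOX9 probe set gave -0.57 at 5 µM and -0.59 at 10 µM against vehicle in the fit over all probe sets, with adjusted p of 0.0124 and 0.0114 by limma.

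MYC, the growth-promoting transcription factor downstream of beta-catenin and TCF, was the only member called lower. It read 11.97, 12.14 and 11.71 in vehicle, 10.71, 10.68 and 10.84 at 5 µM, and 11.62, 11.61 and 11.43 at 10 µM on its 1 probe set. The 3 groups did not overlap, with 5 µM lowest and 10 µM between. At 5 µM it fell to 43.7% of vehicle (95% interval 35.8 to 53.3%, log2 -1.19 ± 0.13, adjusted p = 0.000234 by limma). From 5 to 10 µM it rose 1.75-fold (log2 0.81 ± 0.13, adjusted p = 0.0065 by limma). At 10 µM it read 76.5% of vehicle (log2 -0.39 ± 0.13, adjusted p = 0.0447 by limma), a fall that passed under 6 of 22 alternatives, and after quantile normalization it was -0.21 (adjusted p = 0.188 by limma).

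The order of the doses was not the same for all members. MYC, RNF43 and ZNRF3 fell at 5 µM and were higher again at 10 µM than at 5 µM, SOX9 was lower at both doses, DKK1 was higher at both, and ASCL2 fell between 5 and 10 µM, as did LGR5 only on its values as deposited, which were below the floor at 10 µM. The actin 3′ minus 5′ signal rose from 0 to 5 µM and again from 5 to 10 µM. With that signal as a covariate, which about doubles the SE at 5 µM against 0 µM, DKK1 at 5 µM stayed called (log2 2.78, adjusted p = 0.00519 by limma). MYC was at -0.92 ± 0.23 (adjusted p = 0.0604 by limma). RNF43 at -0.72, ZNRF3 at -0.58, SOX9 at -0.53 and ASCL2 at 0.51 no longer passed (adjusted p = 0.12, 0.123, 0.223 and 0.455 by limma). No member passed at 10 µM against either group with that covariate. The actin values did not overlap between doses (1.914 to 2.286, 2.494 to 2.689 and 2.84 to 3.165 at 0, 5 and 10 µM). This fit can therefore hardly separate dose from the actin signal. At 10 µM against 0 µM it called 0 of all 11758 tested genes.

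**Figure D3:**
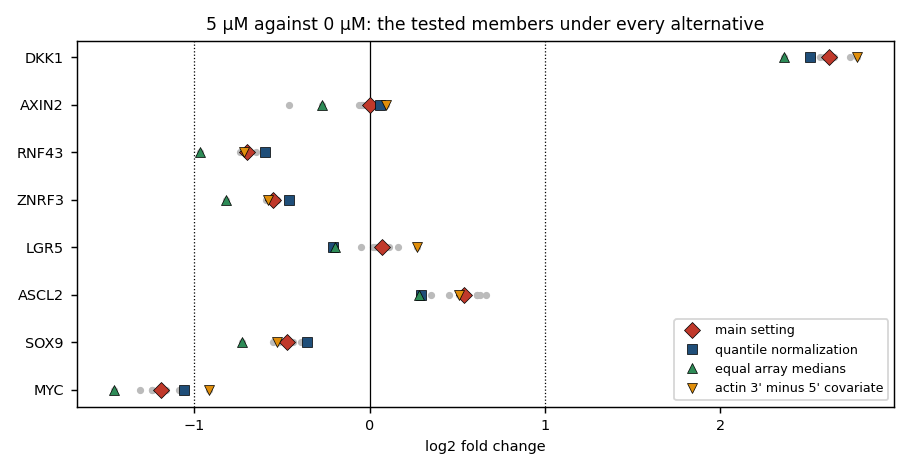
Log2 fold change at 5 µM against 0 µM (x axis) of the 8 tested members under the main setting (diamonds) and under every alternative (grey points), with quantile normalization, equal array medians and the actin covariate marked. DKK1 stays between 2.36 and 2.78 and MYC between -1.46 and -0.92, while AXIN2 and LGR5 lie on both sides of 0.

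Other Wnt target genes, a list of 22 of which 14 were tested, showed a similar mix. At 5 µM against 0 µM 1 rose and 7 fell, where 20.2% of all tested genes rose and 13.3% fell. The median log2 fold change was -0.35 against 0.04 for all tested genes. Of the 14, 1 was called higher and 3 lower, where 8.6% and 1.32% of all tested genes were. With the actin covariate 1 rose and 4 fell. ENC1, an actin-binding protein, went from 12.95 ± 0.14 to 11.90 ± 0.15 (log2 -1.05 ± 0.12) and came back to 12.83 ± 0.13 at 10 µM (log2 0.93 from 5 to 10 µM, adjusted p = 0.00412 by limma). CD44, the hyaluronan receptor, went from 12.57 ± 0.10 to 11.56 ± 0.03 (49.9% of vehicle) and to 12.26 ± 0.09 at 10 µM, a rise of 0.70 from 5 µM (adjusted p = 0.00441 by limma). ETS2, a transcription factor, fell by 1.04 at 5 µM (SE 0.10) and was still lower than vehicle by 0.64 at 10 µM. These 3 genes lay just past 2-fold and none did after quantile normalization (-0.83, -0.83 and -0.95), where 7 genes of the list still fell. The list member called higher was PROX1, a homeobox factor, at 2.73-fold in 5 µM and 2.37-fold in 10 µM. Of the 14, 4 rose from 5 to 10 µM and none fell, while 1 fell once values under the floor were set to it. Of all tested genes 6.93% rose and 8.92% fell there, and with the actin covariate none of the 14 passed.

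Genes that MYC is known to activate for growth, mostly ribosome biogenesis genes, were counted beside MYC. Of 20 tested, none rose and 10 fell at 5 µM, where 20.2% of all tested genes rose and 13.3% fell. The median of the 20 was -0.40, and 6 fell after quantile normalization, with a median of -0.22. With the actin covariate, which widens the errors, none of the 20 passed in any comparison, and their median at 5 µM was -0.31. FBL, the nucleolar methyltransferase fibrillarin, fell to 47.0% of vehicle at 5 µM (log2 -1.09 ± 0.13, and -0.93 after quantile normalization). RRS1, a ribosome assembly factor, fell by 0.82 at 5 µM and by 1.12 at 10 µM, where it was called. Of the 20, 4 rose from 5 to 10 µM and none fell, or 5 rose and 2 fell after quantile normalization. Of all tested genes 6.93% rose and 8.92% fell there. At 10 µM against vehicle 1 of the 20 rose and 4 fell, where 19.8% of all tested genes rose and 13.3% fell. Of 10 tested MYC partners and antagonists 2 rose and 1 fell at 5 µM, each under 2-fold, and MXD1, which competes with MYC for MAX, was at 0.27 ± 0.11 at 5 µM (adjusted p = 0.0903 by limma) and fell by 0.65 from 5 to 10 µM.

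Among other intestinal stem cell markers, 11 of 16 were tested, and 2 rose and 3 fell at 5 µM, with a median of -0.30. After quantile normalization none rose and 3 fell. Of all tested genes 20.2% rose and 13.3% fell at 5 µM. With the actin covariate none of the 11 markers passed in any comparison (median -0.24 at 5 µM). From 5 to 10 µM 4 rose and 1 fell, where 6.93% of all tested genes rose and 8.92% fell. CDCA7, a chromatin factor of cycling cells, was called higher there (log2 1.04 ± 0.15, adjusted p = 0.00547 by limma) after a fall of 0.78 at 5 µM. Of all tested genes 0.264% were called higher from 5 to 10 µM. Colon differentiation markers went the other way: of 12 tested, 7 rose and 1 fell at 5 µM, with a median of 1.23 (0.92 with low signals raised to the floor) and 6 called higher, and from 5 to 10 µM none rose and 5 fell. Of the 12, 4 were tested only because of their treated arrays and had to be higher there, and of the 8 above the floor on all vehicle arrays 3 rose and 1 fell at 5 µM. With the actin covariate 4 of the 12 rose at 5 µM and none fell. VIL1 was the marker that fell at 5 µM (log2 -0.38, adjusted p = 0.0175 by limma). KRT20 (-0.31) and SPDEF (-0.08) did not pass there. MUC2 and GUCA2B were called lower from 5 to 10 µM (log2 -1.5 and -1.18). At 10 µM against vehicle 6 of the 12 rose and 2 fell, MUC2 (-0.86) and KRT20 (-0.59). After quantile normalization VIL1 did not pass (-0.3) and MUC2 was at -1.04 at 10 µM against vehicle. VIL1, KRT20, SPDEF and MUC2 were named after their values were seen. FCGBP, a mucus protein of goblet cells, was 3.08-fold higher at 5 µM (8.47 ± 0.08 to 10.10 ± 0.09). CEACAM7, a surface glycoprotein of mature colonocytes, was 3.11-fold higher at 5 µM and 3.19-fold at 10 µM. GUCA2B, the peptide uroguanylin, was below the floor in vehicle and at least 2.9-fold higher at 5 µM and at least 1.28-fold higher at 10 µM, and CLCA1, a goblet cell secreted protein, was at least 2-fold higher at 5 µM. Markers of cell identity moved beside these. Of 7 tested epithelial markers 5 fell at 5 µM, the keratin KRT19 to 34.4% of vehicle, and the summed linear signal of the 8 was 81816 to 84689 in vehicle, 54241 to 60527 at 5 µM and 51463 to 60014 at 10 µM. Of 5 tested non-epithelial markers 2 rose at 5 µM, the matrix genes COL1A1 (log2 2.68 ± 0.26) and LUM (log2 1.57 ± 0.16), and the summed signal of the 9 was 415 to 534 in vehicle, 1224 to 1351 at 5 µM and 694 to 921 at 10 µM. PTPRC of leukocytes, VWF of endothelium and COL3A1 of fibroblasts were below the floor on all 9 arrays. In contrast, CD14 of monocytes (6.35, 6.30 and 6.67 at 0, 5 and 10 µM) and PECAM1 of endothelium (6.14, 6.77 and 5.90) were above it on all 9. The part of these markers in the results was not tested.

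Most upstream parts of the pathway did not pass the test, which 33.5% of all tested genes passed at 5 µM against 0 µM. Beta-catenin itself, CTNNB1, read 11.26 ± 0.04, 11.07 ± 0.07 and 11.10 ± 0.15 at 0, 5 and 10 µM, with a log2 difference of -0.19 ± 0.10 at 5 µM (95% interval -0.41 to 0.04, adjusted p = 0.191 by limma). APC, TCF7L2, the main TCF factor of the gut, LRP6 and LGR4, the close relative of LGR5, were at -0.17, 0.03, -0.17 and -0.12 at 5 µM, and none of these genes passed in any comparison. Of 13 tested members of the destruction complex and Dishevelled list 1 rose and 1 fell at 5 µM, and DVL2, a Dishevelled, rose by 0.74 ± 0.10. Of 13 tested nuclear partners 1 rose, CTNNBIP1, an inhibitor of the beta-catenin and TCF contact, at 0.59 ± 0.17 (0.36, adjusted p = 0.173 by limma, after quantile normalization). In both lists every gene that passed in any comparison changed less than 2-fold. EFNB1, a ligand of EPHB2, was at -0.33 ± 0.17 at 5 µM (adjusted p = 0.172 by limma), and at -0.57 after quantile normalization (adjusted p = 0.034 by limma). Of the Wnt target list's 2 Eph receptors, EPHB4 fell to 62.9% of vehicle at 5 µM (adjusted p = 0.00287 by limma) and to 55.2% at 10 µM (adjusted p = 0.00124 by limma), and EPHB3 was at -0.02 ± 0.17 at 5 µM (adjusted p = 0.944 by limma). EPHB4 and EPHB3 lie outside the naming rule and were chosen after their values were seen. Of 8 tested genes in the list of other Eph receptors and ephrins none passed at 5 µM. Of the 8, 3 had an unadjusted p under 0.05 there, as did 5243 of all 11758 tested genes. At 10 µM against vehicle 3 of the 8 fell, EPHA1 among them (log2 -0.58 ± 0.17). In that comparison 33.1% of all tested genes passed, 13.3% of them all falling.

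At the cell surface, 2 receptors, 1 ligand and 1 antagonist besides DKK1 were called higher at 5 µM against 0 µM and none lower. Of all tested genes 8.6% were called higher and 1.32% lower. LGR6, FRZB and WNT10B were tested only through a treated group, so that their direction was largely set by the filter. With low signals raised to the floor the called genes were 1 receptor and 1 antagonist. With the actin covariate 1 receptor, 1 ligand and 1 antagonist were called higher and 1 antagonist lower. With equal array medians 1 receptor, 1 ligand and 1 antagonist were called higher and 1 receptor lower. KREMEN1, a receptor that binds DKK1 and removes LRP6 with it, was 3.62-fold higher at 5 µM (6.08 ± 0.10 to 7.93 ± 0.18, adjusted p = 1.58e-05 by limma) and 2.51-fold higher at 10 µM. LGR6, a further R-spondin receptor, read 4.94 ± 0.79 in vehicle, with 2 of 3 arrays at the floor, and 6.20 ± 0.42 at 5 µM (adjusted p = 0.0328 by limma). It was not called with low signals raised to the floor and did not pass after quantile normalization (adjusted p = 0.0622 by limma). These were the 2 called of 13 tested receptors, of which 2 others fell and 4, LGR6 included, were tested only through a treated group. Of the 16 listed antagonists beside DKK1, 3 were tested. FRZB, a secreted Wnt-binding protein, was below the floor in vehicle and at least 2.53-fold higher at 5 µM and at least 1.85-fold higher at 10 µM. Of 21 ligands and R-spondins on the array 6 were tested. WNT10B was below the floor at 0 and 10 µM and at least 1.37-fold higher at 5 µM than in vehicle, while WNT11 rose at 10 µM, from 6.31 ± 0.63 in vehicle and 6.77 ± 0.10 at 5 µM to 7.86 ± 0.31 (log2 1.56 ± 0.29 against vehicle, adjusted p = 0.00484, and 1.09 against 5 µM, adjusted p = 0.0363 by limma).

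**Figure D4:**
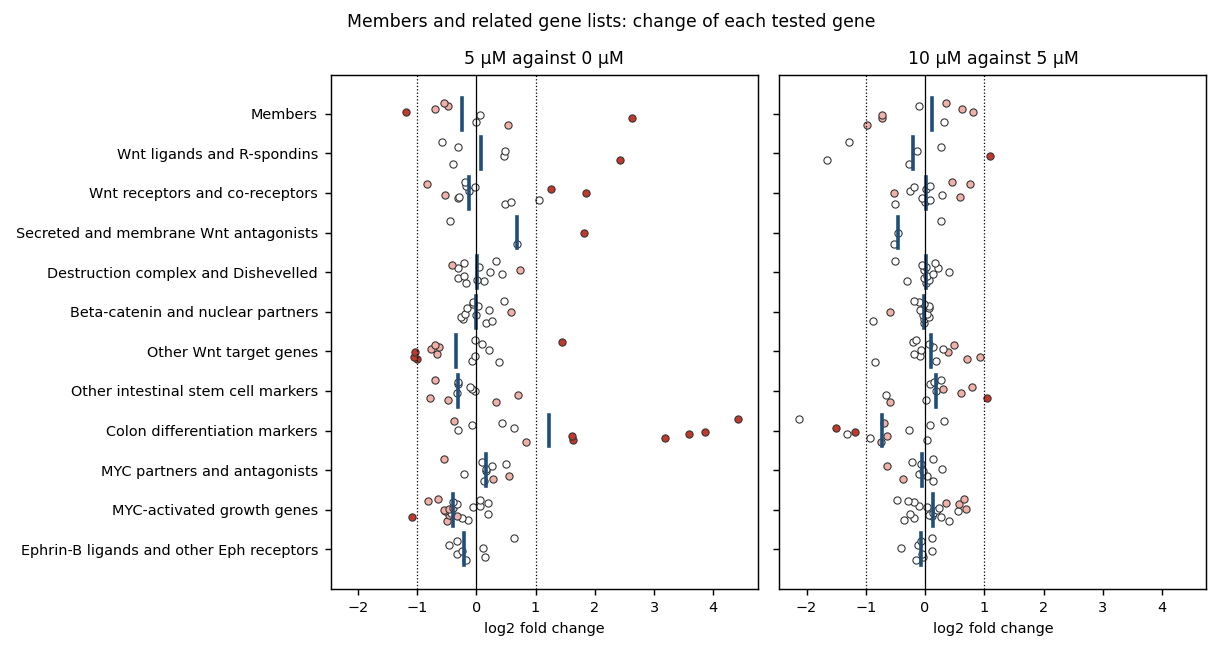
Log2 fold change (x axis) of each tested gene in the members and in 11 related lists (rows), at 5 µM against 0 µM on the left and 10 µM against 5 µM on the right. Dark points were called, pale points passed the adjusted p only, white points did not pass, and the blue bar is the median of the row. The members' medians are -0.24 and 0.11, those of the differentiation markers 1.23 and -0.73, and both panels use the 5 µM arrays. Of the 12 differentiation markers 4 were tested only through treated arrays and had to be higher there. With low signals raised to the floor the medians of these markers are 0.92 and -0.68. Fitted values are drawn also where 1 group was below the floor.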

How the data were processed

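Total RNA of 9 HT-29 cultures had been biotin-labelled and hybridised to Affymetrix U133 Plus 2.0 arrays, 1 per culture. The values deposited by the authors are log2 signals for 54675 probe sets. The submitters' processing notes name RMA and affy 1.14.2, but the values have the form of MAS 5.0 signals: a minimum of -3.322 and a 2% trimmed mean of the linear signal of 250.0 on every array, so arrays were scaled by 1 factor each. Dim signals are noisy in this form, hence the floor. Left out were 6 probe sets with a missing value. The probe table gave 1 gene for 41091 probe sets, several for 1801 and none for 11721.

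Two-sided tests came from limma 3.58.1 (R 4.3.3), with a mean per dose fitted by lmFit over all 9 arrays, then eBayes. The code was tested on simulated data. Members and lists were chosen with earlier results of these data known, and 198 of 213 list entries matched a gene on the array. All members with every probe set are named, and from each list up to 4 called genes by smallest p, or the gene of smallest p in a list with no call, plus direct partners and listed cell type markers. Alternatives changed the floor, the probe set of a gene, the fit, the scaling, the fold limit, a covariate or the arrays used. Replicate numbers did not pair the arrays. Promoters came from a table of RefSeq promoters, and 3 members matched an entry of the table used here. The number of arrays limits the precision, and sequencing data of these cultures were left aside. Plots used Python 3.11.15 and matplotlib 3.10.9.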

Additional observations from a re-analysis of the deposited data

How the results depend on the processing

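Of the members' log2 fold changes, 152 of 179 values under alternatives at 5 µM against 0 µM kept their direction and their side of the adjusted p, 18 lost significance and 9 turned sign. At 10 µM against 5 µM these were 141, 36 and 1, with 1 that newly passed, and at 10 µM against 0 µM 144, 20 and 5, with 10 that newly passed. The count of members called moved to 1 at 5 µM against 0 µM without _x_at and _s_at probe sets, since MYC has only an _s_at one, and to 1 with the actin covariate. With that covariate it was 0 at 10 µM against 0 µM (limma, 1 member at an unadjusted p under 0.05), and all genes called were 663, 12 and 0 in the 3 comparisons (998 genes at an unadjusted p under 0.05 in the last). Array weights called 1 member (ASCL2) and 637 genes at 10 µM against 5 µM. Student's test called 114 genes there and 437 at 10 µM against 0 µM. With no fold limit 6, 6 and 4 members and 3941, 1864 and 3895 genes were called. Leaving out 1 array gave 2 to 2, 0 to 1 and 1 to 1 members, and 1094 to 1190, 157 to 381 and 755 to 1090 genes. The lowest count, 157, came without 5 µM replicate 3, and the 1 member was ASCL2, without 5 µM replicate 1 or 3 or 10 µM replicate 2.

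Signs turned as follows, and none of the turned values passed the adjusted p. AXIN2 averaged over probe sets was at -0.05 (10 µM against 5 µM) and -0.51 (10 µM against 0 µM), and without turning went from 0.00 to -0.46 at 5 µM against 0 µM (adjusted p = 0.0738 by limma). At 5 µM against 0 µM it was 0.01 with array weights, 0.06 after quantile normalization and 0.09 with the actin covariate (-0.06 to 0.07 without 1 array). LGR5 at 5 µM was -0.21 after quantile normalization and -0.20 with equal medians (-0.05 to 0.16 without 1 array). RNF43 at 10 µM against 0 µM was 0.05 after quantile normalization and 0.13 without 10 µM replicates 2 and 3 (-0.16 to 0.02 without 1 array), and MYC there was 0.11 with the actin covariate (adjusted p = 0.974 by limma). The causes were not tested. Equal array medians shifted the median of all genes to -0.22 at 5 µM and -0.23 at 10 µM against 0 µM.

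Replicate numbers are shared by the 3 groups, but the 9 same-numbered pairs correlated at -0.09 to 0.18 and 2 of 9 exceeded 0.1, so they were not taken as pairs. With the replicate number as a block, 2, 0 and 1 members and 1167, 265 and 892 genes were called. DKK1 from 5 to 10 µM (adjusted p = 0.0593), ZNRF3 from 5 to 10 µM (0.0599) and MYC at 10 µM (0.0607) no longer passed limma's test in this block fit, and ASCL2 at 10 µM against 0 µM did (0.0339).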
